A study of Mus musculus with 9 samples.

Results

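The genes described here encode the proteins of the mitochondrial ribosome, as measured in mouse lung tumour cells sorted from spheroids. They were chosen by name: every row of the deposited table of expression values whose symbol starts with Mrpl or Mrps followed by a digit was taken. This gave 77 of the 12339 genes in the table, 48 named Mrpl and 29 named Mrps, and the rule itself uses no measured value. All 77 passed the filter on low counts and were tested.

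KP-GFP cells, GFP-labelled lung tumour cells of a C57BL/6 background, were grown as spheroids in 3 ways: mixed with lung TRMs (tissue-resident macrophages, here alveolar macrophages), mixed with bone-marrow monocytes, or alone. Co-cultures started from 2500 tumour cells and 5000 added cells, cultures alone from 2500 tumour cells, and all ran for 7 days without another treatment named in the labels. The labels do not spell out the alleles behind the name KP and do not say whether the cells are 1 clone. For each library 32 spheroids were pooled and GFP-positive cells were sorted, so each value is an average over sorted cells. There are 3 libraries per group, and the study asked how each added cell population acts on the tumour cells.

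The mitochondrial ribosome translates the few mRNAs that mitochondrial DNA encodes, all of which specify parts of the oxidative phosphorylation machinery. Its ribosomal RNAs are transcribed in the organelle, while its proteins are encoded in the nucleus, made in the cytosol and imported. The small subunit binds and decodes the mRNA, and the large subunit joins amino acids and holds the exit tunnel that faces the inner membrane. Many of the proteins have counterparts in bacterial ribosomes, and others exist only in mitochondrial ribosomes. By these roles 50 of the 77 genes belong to the large subunit and 26 to the small subunit. By origin 44 were counted as having a bacterial counterpart and 30 as specific to mitochondria, and the others were placed in neither of these origin classes. Mrps18a and Mrps30 carry small-subunit names but encode proteins placed in the large subunit. Mrps36 belongs to neither subunit count, since its product is now known as a component of the 2-oxoglutarate dehydrogenase complex.

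Promoter windows are shown for genes with different outcomes below, because motifs bound by NRF1, ETS factors and YY1 are the textbook features of promoters of nuclear genes for mitochondrial proteins. Each window is RefSeq sequence of build GRCm38.p6, runs from 250 bases before to 50 bases after the annotated start, and is written on the strand of the gene. Capitals mark matches to 4 letter patterns searched on both strands: GCGC then any base then TGCGC (NRF1-type), CCGGAAG (ETS-type), AAGATGGC (YY1-type) and CACGTG (E-box). Mrps27 (chr13:99344536-99344835, plus strand) holds an ETS-type match that starts 48 bases before the annotated start and a YY1-type match that starts 15 bases after it. Mrpl45 (chr11:97315466-97315765, plus strand) holds 3 NRF1-type matches, and Mrpl49 (chr19:6057706-6058005, minus strand) holds a YY1-type match 17 bases after its start. Mrps6 (chr16:92058086-92058385, plus strand) and Mrpl50 (chr4:49521034-49521333, minus strand) hold none of the 4 patterns.
Mrps27: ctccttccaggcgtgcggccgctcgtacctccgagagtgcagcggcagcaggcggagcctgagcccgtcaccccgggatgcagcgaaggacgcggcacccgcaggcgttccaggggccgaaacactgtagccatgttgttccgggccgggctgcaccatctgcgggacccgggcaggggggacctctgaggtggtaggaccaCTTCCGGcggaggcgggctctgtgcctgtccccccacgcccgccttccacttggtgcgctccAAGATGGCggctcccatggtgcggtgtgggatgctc
Mrpl45: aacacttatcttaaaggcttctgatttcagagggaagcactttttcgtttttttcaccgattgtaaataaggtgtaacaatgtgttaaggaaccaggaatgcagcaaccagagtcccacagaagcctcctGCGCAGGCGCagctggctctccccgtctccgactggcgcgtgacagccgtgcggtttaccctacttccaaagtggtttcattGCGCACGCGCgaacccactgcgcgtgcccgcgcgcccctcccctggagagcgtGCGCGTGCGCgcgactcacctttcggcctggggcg
Mrpl49: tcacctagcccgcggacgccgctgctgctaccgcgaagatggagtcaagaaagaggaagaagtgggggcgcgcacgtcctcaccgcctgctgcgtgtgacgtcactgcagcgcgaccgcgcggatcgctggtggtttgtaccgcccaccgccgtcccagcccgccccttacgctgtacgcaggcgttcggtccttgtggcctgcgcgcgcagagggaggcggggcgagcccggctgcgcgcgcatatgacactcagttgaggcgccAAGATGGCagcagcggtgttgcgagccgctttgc
Mrps6: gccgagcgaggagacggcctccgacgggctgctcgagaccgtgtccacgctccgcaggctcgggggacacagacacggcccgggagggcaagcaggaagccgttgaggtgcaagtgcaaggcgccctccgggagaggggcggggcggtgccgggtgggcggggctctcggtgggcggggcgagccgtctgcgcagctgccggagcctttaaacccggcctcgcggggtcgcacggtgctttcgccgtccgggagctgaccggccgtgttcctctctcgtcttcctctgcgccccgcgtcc
Mrpl50: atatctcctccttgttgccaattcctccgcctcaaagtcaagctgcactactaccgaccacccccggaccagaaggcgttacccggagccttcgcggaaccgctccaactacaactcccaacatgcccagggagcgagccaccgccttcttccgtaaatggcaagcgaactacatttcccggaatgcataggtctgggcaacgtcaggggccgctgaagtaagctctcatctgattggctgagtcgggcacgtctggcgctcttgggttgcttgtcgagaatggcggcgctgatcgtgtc

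A window was on hand for 68 of the 77 genes. The ETS-type pattern was present in 25 of the 68 (36.8%), against 20.2% of the 9775 windows of genes in the values table and 9.93% of all 27025 windows. The YY1-type pattern was present in 12 of the 68 (17.6%), against 5.28% of windows of genes in the table and 3.19% of all windows. The NRF1-type pattern was present in 13 (19.1%), against 11.5% and 5.19% in the same references. The E-box pattern, which MYC and other factors bind, was the exception, with 5 of 68 (7.35%) against 11.4% and 8.09%. These matches describe letters in a window; they are neither measured binding sites nor causes of the levels reported below. Of the genes higher with monocytes, 7 have a window, and the ETS-type pattern was present in 1, the NRF1-type in 1, the YY1-type in 2 and the E-box in 0 of them. Among the 60 windows of genes called in no comparison the same patterns were present in 24, 12, 10 and 5.

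Library depth, recovered from the deposited values as whole reads, ran from 16001895 to 32771448 reads. Levels are given as CPM (counts scaled to a common library size), and levels of different genes are set side by side only as CPM per kilobase of exon. The lowest value of any of the 77 genes in any library rested on 16 reads and the median value on 560, so counting error was small for most of them. Of the tumour epithelial markers 7 of 8 were in the table, with Epcam, an epithelial adhesion molecule, at 501 to 822 CPM with TRMs, 277 to 531 CPM with monocytes and 494 to 660 CPM alone; Nkx2-1, a lung lineage factor, was not. Macrophage and monocyte markers gave 17 of 24 in the table, and their summed level was 178 to 329 CPM in TRM co-cultures, 189 to 254 CPM in monocyte co-cultures and 167 to 259 CPM in tumour cells alone. Ptprc, which marks blood cells, had no read in 1 of the 9 libraries and at most 4.47 CPM in the others, and these genes went in different directions. Mrc1, a macrophage receptor, was at 22.4 to 39.8 CPM with TRMs, 34.6 to 47.8 CPM with monocytes and 4.98 to 5.37 CPM alone. Mrc1 and F13a1, a transglutaminase gene, rose with TRMs (log2 differences 2.64 and 3.80) and with monocytes (2.92 and 3.75). Ptprc (-3.82, limma adjusted p = 0.0361), Siglecf (-3.95, 0.0413) and Chil3 (-3.63, 0.00659), the last 2 of them alveolar macrophage genes, fell with monocytes, and the other 12 passed in neither comparison. These falls rested on low levels. Ptprc was at 0.021 to 0.565 CPM with monocytes and 0.916 to 3.46 CPM alone. Siglecf was at 0.027 to 0.188 and 1.05 to 1.79 CPM, and Chil3 at 0.314 to 1.20 and 3.06 to 14.6 CPM. Over all libraries Ptprc had 0 to 77 reads and Siglecf 0 to 59. The call on Ptprc was lost in 10 of 18 other fits, among them those without any 1 alone library, TRM library 3 or monocyte library 1 or 3 (adjusted p = 0.0522 to 0.138). The call on Siglecf was lost without any 1 alone library, TRM library 2 or monocyte library 1 (adjusted p = 0.054 to 0.164), and that on Chil3 with limma-voom (adjusted p = 0.0728). Of the epithelial markers the adhesion genes Cdh1 (-0.96, adjusted p = 0.00173) and Cldn7 (-1.09, 0.00438) fell with monocytes, the other 5 did not pass, and none of the 7 passed with TRMs. The part of these cells in the results below was not tested. None of 8 neutrophil markers was in the table. In bulk samples fewer cells of a type and less RNA per cell cannot be told apart. Nothing in the labels says that replicates came from separate cultures, so p-values measure the spread between these libraries, which may be technical.

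In tumour cells alone the 77 genes had a median level of 10.7 CPM per kilobase and spanned a wide range. Mrpl34, a small large-subunit protein with a bacterial counterpart, was highest by total exon length at 36.6 ± 10.3 CPM per kilobase (SD, n = 3). Mrpl28, also of the large subunit, followed at 36.0 ± 1.55, Mrpl9 at 30.1 ± 4.02 and Mrpl2, whose bacterial counterpart lies near the peptidyl transferase centre, at 27.8 ± 3.90 CPM per kilobase. The SD of Mrpl34 spans the other 3, so the order of these 4 is not fixed by these libraries. At the low end stood Mrpl23, which in bacteria sits at the tunnel exit, at 0.695 ± 0.398 CPM per kilobase. Mrps36 was at 0.867 ± 0.155, Mrpl48 at 0.941 ± 0.0987 and Mrpl33 at 1.42 ± 0.119 CPM per kilobase. The products of these genes share 1 complex, Mrps36 aside, and their mRNA levels per kilobase differed widely. Exon length, the divisor, differed too. It was 4883, 8152 and 7326 bp for the low genes Mrpl23, Mrpl48 and Mrpl33, and 1274 bp for Mrps36. For the high genes Mrpl34, Mrpl28, Mrpl9 and Mrpl2 it was 607, 1380, 2703 and 1170 bp. How much of the range comes from this length was not tested. The order depends on the exon length used, which counts every annotated exon of a gene. By the longest transcript Mrpl9 was highest (49.1 CPM per kilobase) and Mrpl38 second (46.1), ahead of Mrpl28 and Mrpl34, while Mrpl23 remained lowest. Ranks by the longest transcript correlated with those above at a Spearman rho of 0.954 over the 77 genes, which are not independent replicates.

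**Figure D1:**
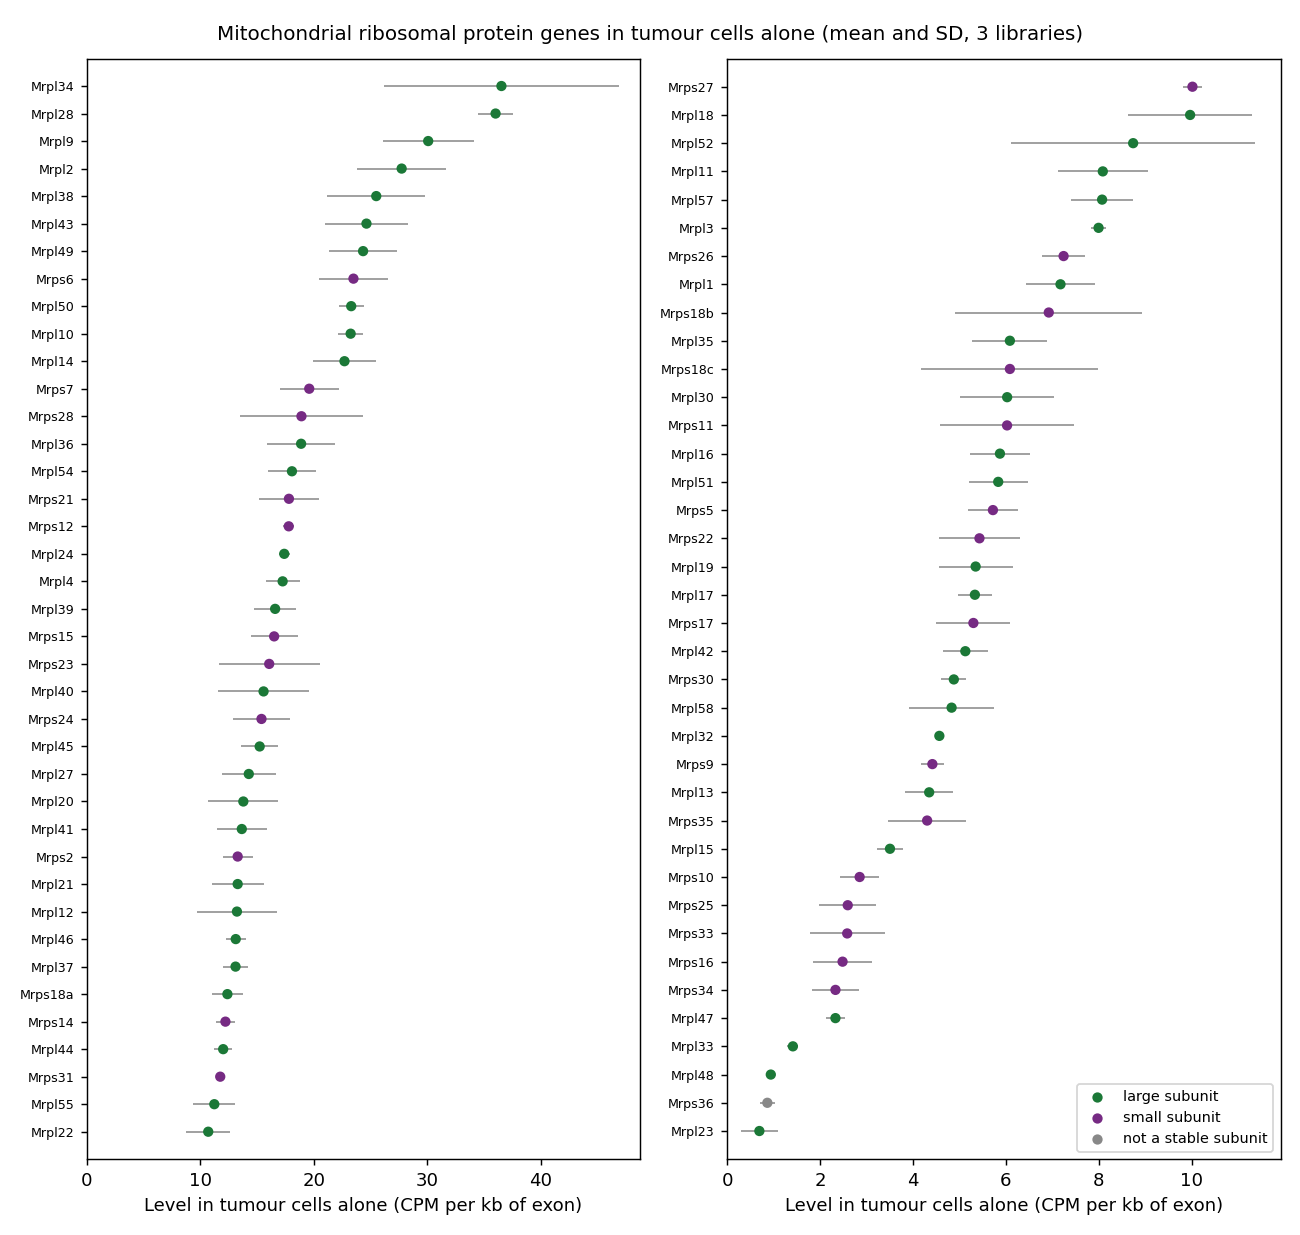
Level of each of the 77 genes in tumour cells alone, in CPM per kilobase of exon, as mean (point) and SD (line) over 3 libraries, ordered from high to low and coloured by subunit; the right panel continues the left on a narrower scale. Mrpl34 and Mrpl28 lead at about 36 CPM per kilobase, large- and small-subunit genes are interleaved, and Mrpl23 is last.

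Some levels carry reads that cannot be assigned with certainty, because no source says that the libraries kept strand, and exons of 32 of the 77 genes overlap exons of a neighbour. Among them is Mrps34, a mitochondria-specific small-subunit protein. Of its exon length 63.4% lies opposite Mapk8ip3 and 37.0% is shared with Nme3 on the same strand. The level of Mrps34 was 6.10, 3.68 and 4.25 CPM with TRMs, 5.92, 3.37 and 7.55 CPM with monocytes and 5.42, 3.60 and 5.42 CPM alone. All groups overlapped. Mrps25 shares 69.8% of its exon length with Nr2c2 on the opposite strand, Mrpl19 36.0% with Gcfc2 and Mrpl43 33.4% with Twnk, the mitochondrial DNA helicase. In addition, 20 of the 77 share over 10% of their 50-base words with another gene. A further arrangement, a neighbour starting in the opposite direction within 1000 bases, was found for 23 of them. Mrps27 starts next to Ptcd2 in this way, Mrpl49 next to Fau and Mrpl50 next to Zfp189.

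In TRM co-cultures 1 mitochondrial ribosome gene passed the test against tumour cells alone. Mrpl50, a mitochondria-specific protein of the large subunit, was at 34.7, 30.9 and 32.3 CPM in TRM co-cultures and at 50.3, 51.0 and 46.6 CPM in tumour cells alone. Every TRM library lay below every alone library, and the gene fell by 0.60 on the log2 scale (SE 0.18, limma adjusted p = 0.0328). It was the only one of the 77 called lower, against a background of 8.15% of all 12326 genes tested called lower in this comparison. None was called higher by limma or by edgeR, against a background of 10.2% higher and 18.4% in either direction; DESeq2 called Mrpl45 (adjusted p = 0.0391). At an unadjusted p under 0.05 there were 4 higher and 1 lower, where 31.2% of all genes passed in either direction. Of the 77, 39 had a log2 difference above 0 (background 49.9%), with a median of 0.02 beside a median of -0.00 over all genes. The difference ran from -0.60 to 0.45. The call on Mrpl50 was lost on leaving out any single TRM or alone library, with adjusted p between 0.0506 and 0.120.

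Groups without overlap were as frequent in either direction: 7 genes had all 3 TRM libraries above all 3 alone libraries and 7 had them below, against backgrounds of 20.8% higher and 18.5% lower. Among those above was Mrpl45, which in human mitochondria helps attach the ribosome to the inner membrane at the tunnel exit. Its level was 53.3, 51.6 and 57.3 CPM with TRMs and 35.0, 40.4 and 43.2 CPM alone. The groups were clearly apart, and the log2 difference of 0.45 (SE 0.16) missed the threshold at an adjusted p of 0.0613 in limma. It passed without monocyte library 1 (adjusted p = 0.0363) or 3 (0.0465), which enter only through the shared estimate of spread. Among those below was Mrpl27, a large-subunit protein with a bacterial counterpart, at 11.1, 10.3 and 10.4 CPM with TRMs and 14.2, 16.4 and 11.7 CPM alone (log2 difference -0.40, SE 0.23, limma adjusted p = 0.266). Mrps31 and Mrps2, both of the small subunit, were also below alone without overlap, by -0.25 and -0.26 on the log2 scale, with no call in either (adjusted p = 0.281 and 0.293). None of these 3 passed the test.

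With monocytes 8 genes rose and none fell. They were Mrpl4, Mrps6, Mrps27, Mrpl49, Mrpl28, Mrpl45, Mrpl10 and Mrps17, which is 10.4% of the 77 against a background of 14.7% of all tested genes called higher, 12.7% called lower and 27.3% called in either direction. The share called was thus no larger than among genes at large. It was 5 genes without alone library 1 or 3 and 4 genes without monocyte library 3. On the recovered reads edgeR, DESeq2 and limma-voom each called 8 higher and 0 lower. At an unadjusted p under 0.05 limma had 13 higher and 0 lower, beside 38.3% of all genes in either direction. What did differ in count was the sign: 62 of 77 (80.5%) had a log2 difference above 0, beside 48.9% of all genes, with a median of 0.21 beside -0.02 over all genes. The difference ran from -0.34 to 0.72. Groups without overlap numbered 13 higher and 2 lower, with backgrounds of 21.3% and 19.2%.

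Mrpl4, whose bacterial counterpart helps line the exit tunnel, had the smallest p. It was at 77.9, 74.8 and 70.3 CPM with monocytes and at 41.0, 48.8 and 45.8 CPM alone, a log2 difference of 0.72 (SE 0.14, limma adjusted p = 0.00261). Each monocyte library was well above each alone library. The TRM co-cultures, at 55.5, 61.4 and 49.4 CPM, lay between, all above the alone libraries (log2 difference 0.29, adjusted p = 0.186).

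Mrps6, whose bacterial counterpart sits on the platform of the small subunit, was at 49.8, 66.7 and 62.4 CPM with monocytes and at 31.2, 40.6 and 36.4 CPM alone. The log2 difference was 0.72 (SE 0.17, limma adjusted p = 0.00682). In TRM co-cultures it was at 39.3, 37.7 and 32.3 CPM, within the range of tumour cells alone. Mrps6 shares 159 bp of exon with Slc5a3, an inositol transporter gene on the same strand; it also shares 305 bp with the predicted gene Gm49711, which is not in the table. Slc5a3 itself had a log2 difference of 0.04 with monocytes. Its promoter window, shown above, held no match to the 4 patterns.

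Mrps27, a pentatricopeptide repeat protein of the small subunit, was the least variable of the 8. It was at 32.9, 31.6 and 32.3 CPM with monocytes and at 20.7, 21.4 and 20.7 CPM alone (log2 difference 0.62, SE 0.15, limma adjusted p = 0.00896). In TRM co-cultures it stood at 26.7, 26.7 and 27.4 CPM, apart from both other groups in every library, though the TRM difference from alone missed the threshold (0.36, adjusted p = 0.124). Of the exon length of Mrps27, 24.2% lies opposite 6430562O15Rik, a neighbour without a value here, and its part in these levels was not tested.

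Mrpl49, a mitochondria-specific large-subunit protein, was at 64.3, 65.8 and 69.4 CPM with monocytes and at 49.1, 39.2 and 48.7 CPM alone (log2 difference 0.55, SE 0.14, limma adjusted p = 0.0121). In TRM co-cultures it was at 59.3, 57.4 and 63.5 CPM, again between the other groups and without overlap with alone (0.40, adjusted p = 0.0690). These 4 genes, Mrpl4, Mrps6, Mrps27 and Mrpl49, were called in each of the 18 other fits, which include leaving out each of the 9 libraries.

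The calls on the other 4 did not hold in every fit with a library left out. For Mrpl10 and Mrps17 they were also lost without a TRM library, which enters only through the shared estimate of spread. Mrpl28, the gene second in level per kilobase, was at 67.6, 65.4 and 81.0 CPM with monocytes and at 52.2, 48.3 and 48.7 CPM alone (log2 difference 0.52, SE 0.14, limma adjusted p = 0.0157). Its call was lost without monocyte library 3 (adjusted p = 0.0509) or without alone library 3 (0.0604). Mrpl45 was at 48.3, 58.0 and 65.0 CPM with monocytes, beside the alone values given above (log2 difference 0.52, SE 0.16, adjusted p = 0.0245). Its call was lost without alone library 1 (0.108) or without monocyte library 2 (0.0672) or 3 (0.0744). For this gene the TRM and monocyte differences were alike in size, 0.45 and 0.52, and the co-cultures differed by -0.07 (SE 0.16) from each other.

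Mrpl10, which carries the stalk that recruits translation factors, was at 52.4, 48.9 and 66.6 CPM with monocytes and at 39.8, 37.8 and 41.5 CPM alone (log2 difference 0.48, SE 0.15, limma adjusted p = 0.0329). Its call was lost without monocyte library 3 (adjusted p = 0.110), TRM library 2 (0.0504) or any of the alone libraries (0.0724 to 0.0853). Of its exon length 14.1% lies opposite Gm11574, a neighbour without a value here. Mrps17, with a bacterial counterpart in the small subunit, was at 48.3, 46.0 and 46.6 CPM with monocytes and at 29.8, 40.0 and 33.5 CPM alone (log2 difference 0.46, SE 0.16, adjusted p = 0.0431). Its monocyte values were tight and its alone values spread, and its call held in only 2 of the 9 fits with a library left out, those without TRM library 1 and alone library 2. The values of Mrps17 in TRM co-cultures, 35.1, 33.6 and 32.2 CPM, lay inside the range of tumour cells alone.

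**Figure D2:**
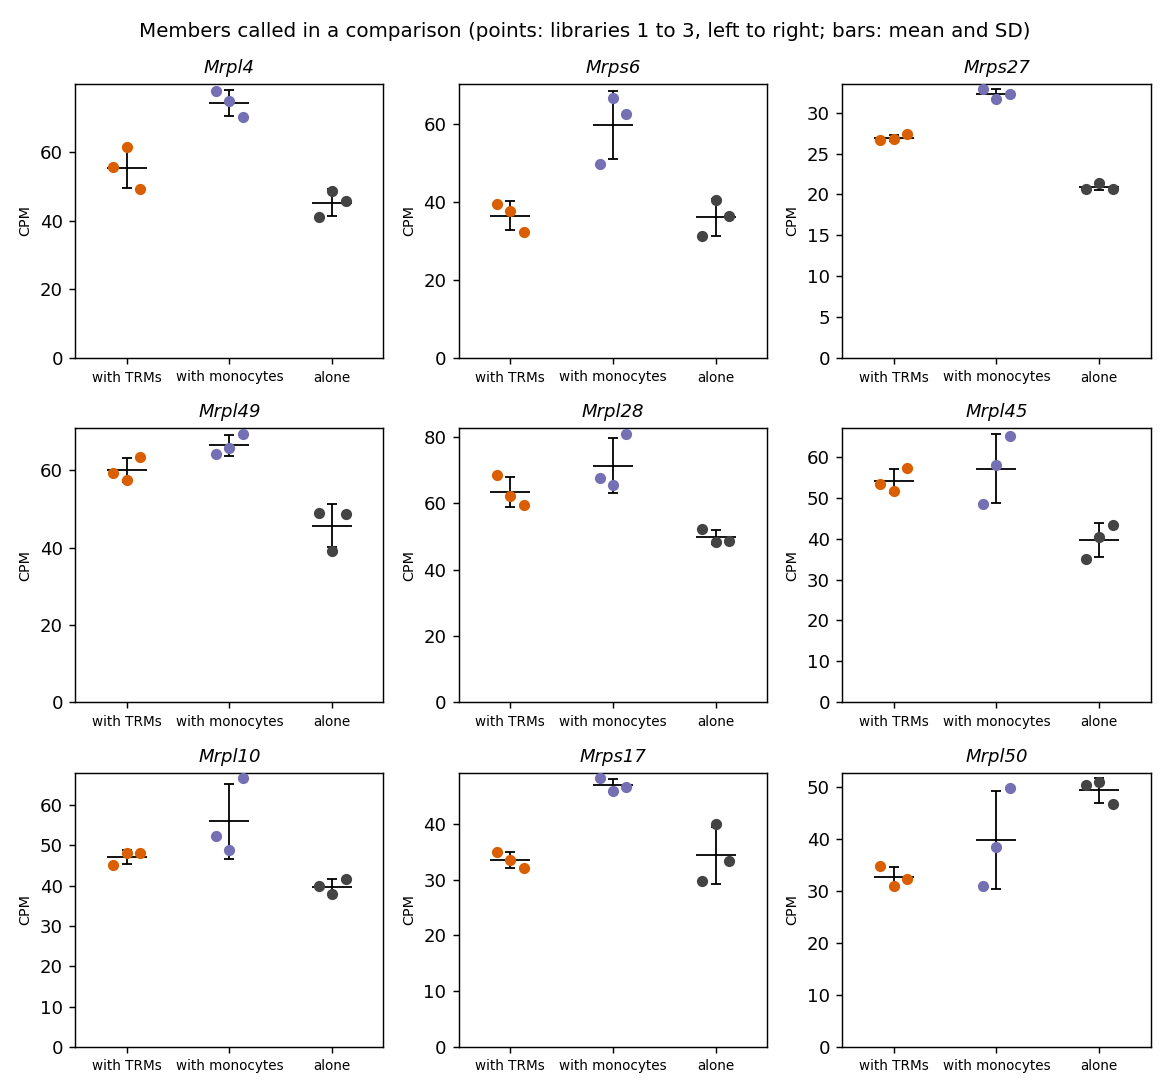
Level in CPM of the 9 genes called in a comparison against tumour cells alone, for libraries 1 to 3 of TRM co-cultures, monocyte co-cultures and tumour cells alone; points are libraries, bars are mean and SD (n = 3). The first 8 panels show genes higher with monocytes, with no monocyte library below an alone library, and the last shows Mrpl50, where the 3 TRM libraries lie between 30.9 and 34.7 CPM.

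Mrpl50 was also below the alone level with monocytes, at 31.0, 38.4 and 49.7 CPM, with library 3 inside the alone range (log2 difference -0.34, SE 0.18, limma adjusted p = 0.181). Without that library it was called lower (-0.51, adjusted p = 0.0369). It was the lowest of the 77 in both comparisons, which share the alone libraries.

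Both subunits contributed to the 8 genes higher with monocytes, and no difference between the subunits was tested. With monocytes 5 of 50 large-subunit genes and 3 of 26 small-subunit genes rose (10.0% and 11.5%, against 14.7% of all genes), with median log2 differences of 0.19 and 0.26. Of the genes with a bacterial counterpart 5 of 44 rose (11.4%, median 0.26), and of the mitochondria-specific ones 3 of 30 (10.0%, median 0.14). With TRMs the median was 0.02 for the large and -0.00 for the small subunit. The summed level of the large-subunit genes was 2.19 to 2.49 times that of the small-subunit genes in each of the 9 libraries.

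**Figure D3:**
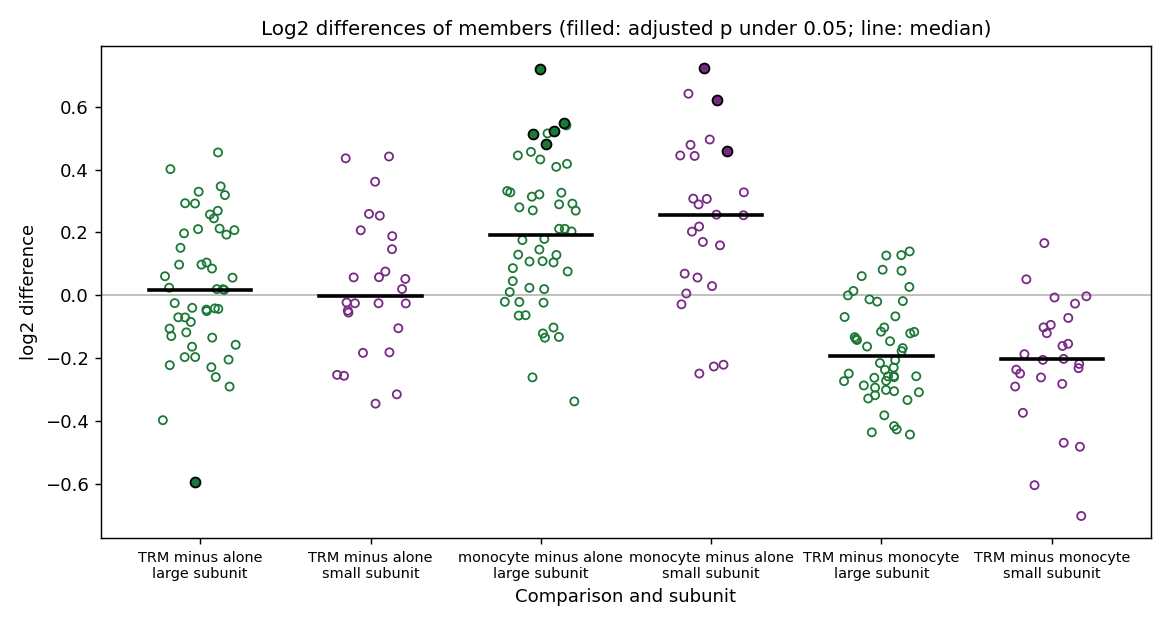
Log2 difference of each gene (points) in 3 comparisons, for the 50 large-subunit and 26 small-subunit genes; filled points passed an adjusted p under 0.05, thick lines are medians, and Mrps36 is left out. Most points of the monocyte comparison lie above 0, with medians of 0.19 and 0.26, while those of the TRM comparison centre near 0.

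Functional neighbours within the ribosome gave mixed results. The stalk and its base are built from Mrpl10, Mrpl11 and Mrpl12, of which Mrpl10 was called. Mrpl11 was at 28.8, 36.0 and 52.1 CPM with monocytes and at 23.0, 29.3 and 26.0 CPM alone (log2 difference 0.54, SE 0.21, limma adjusted p = 0.0784). Its monocyte mean was raised mainly in library 3, and the groups overlapped. Mrpl12, the stalk protein itself, was at 18.8, 28.2 and 36.2 CPM with monocytes and at 16.4, 26.5 and 17.9 CPM alone (0.43, adjusted p = 0.233). Of the 6 genes assigned to the tunnel exit all had a positive monocyte difference, with a median of 0.23, beside 80.5% of the 77 genes. Of the 6, 1 was called, Mrpl45 (16.7%, against 14.7% of all genes). Without monocyte library 3 the differences of Mrpl22, Mrpl23 and Mrpl24 were below 0, at -0.02, -0.40 and -0.19. Those of Mrpl17, Mrpl47 and Mrpl45 stayed above 0, at 0.08, 0.14 and 0.43.

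The 3 genes of the Mrps18 family encode paralogues that occupy different places in the ribosome: Mrps18a in the large subunit, Mrps18b and Mrps18c in the small. In tumour cells alone they were at 12.4 ± 1.34, 6.92 ± 2.01 and 6.09 ± 1.90 CPM per kilobase, so Mrps18a was above the other two and those did not differ beyond their spread. Mrps18a had log2 differences of -0.09 with TRMs and -0.06 with monocytes. Mrps18b was at 14.2, 9.75 and 9.87 CPM with TRMs and at 12.1, 19.3 and 12.0 CPM alone (-0.35, limma adjusted p = 0.381). Mrps18c had differences of 0.44 and 0.45, each with an SE of 0.40. None of the 3 passed a test, and the last was too variable for a difference of that size to be told from 0.

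Genes with other known activities did not pass either. Mrpl58, a peptidyl-tRNA hydrolase that frees stalled ribosomes, was at 12.4, 13.5 and 14.0 CPM with TRMs, 8.35, 16.9 and 22.2 CPM with monocytes and 15.1, 19.5 and 13.7 CPM alone. Mrpl44, which has a ribonuclease III-like fold, had log2 differences of 0.19 with TRMs and 0.21 with monocytes (SE 0.19 each). Mrps12, a protein of the decoding centre, differed by -0.03 and 0.07 (SE 0.22). Mrps30, a large-subunit protein in spite of its name, differed by 0.10 and -0.02 (SE 0.19), and Mrpl3, an early-binding core protein in bacteria, by 0.10 and 0.02 (SE 0.14). Mrps36 had 0.886 to 1.87 CPM over all 9 libraries, the fewest reads of the 77, and its SE of 0.59 exceeded its differences of -0.06 with TRMs and 0.33 with monocytes.

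The co-cultures were also set against each other, which is the test of whether the added cell types differed in their effect. Of the 77 genes none was called by limma or edgeR, against backgrounds of 0.325% of all genes higher, 0.073% lower and 0.398% in either direction with TRMs than with monocytes. At an unadjusted p under 0.05 there were 0 higher and 6 lower, beside 11.7% of all genes in either direction. DESeq2 called 1, Mrps6, lower with TRMs (log2 difference -0.70, adjusted p = 0.00864; limma -0.70, SE 0.17, adjusted p = 0.0902). In Mrps6 every TRM library, at 32.3 to 39.3 CPM, was below every monocyte library, at 49.8 to 66.7 CPM. Mrps17 (-0.48, SE 0.16, limma adjusted p = 0.221) and Mrpl4 (-0.43, SE 0.14, adjusted p = 0.238) were next, also without overlap.

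In this comparison 10 of 77 had a log2 difference above 0, against 50.0% of all genes, and the median was -0.21 against -0.00 over all genes. The difference ran from -0.70 to 0.17. Without overlap 15 were lower and 1 higher with TRMs than with monocytes, against backgrounds of 8.62% and 7.55%. The 1 higher gene was Mrps5, whose bacterial counterpart lines the mRNA entry of the small subunit, at 37.8, 35.0 and 35.6 CPM with TRMs and at 34.9, 30.8 and 31.0 CPM with monocytes (0.17, SE 0.15, limma adjusted p = 0.747).

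The positive shift with monocytes was carried mostly by 1 library. The median log2 level of the 77 genes relative to the alone mean was -0.05 in monocyte library 1, 0.13 in library 2 and 0.57 in library 3. In TRM libraries 1 to 3 it was 0.14, -0.08 and -0.05, and in alone libraries 1 to 3 it was -0.10, 0.17 and -0.09. Over all tested genes the same median stayed between -0.01 and 0.03 in each library. Monocyte library 3 held the highest value of 53 of the 77 genes (68.8%), while it held the highest value of 13.8% of all tested genes. The summed level of the 77 was 2107, 2272 and 2850 CPM in monocyte co-cultures, 2240, 1985 and 2022 CPM in TRM co-cultures and 1951, 2252 and 1957 CPM alone.

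Without monocyte library 3 the median difference from alone was 0.04, with 44 of 77 above 0, and 4 genes were called higher: Mrpl4, Mrps6, Mrps27 and Mrpl49. The difference between the co-cultures then had a median of -0.04 with 33 of 77 above 0. Without monocyte library 1 the median was 0.37 and 12 genes were called higher, 7 of them shared with the 8 above. In the fit without monocyte library 3, Mrps17, at 48.3 and 46.0 CPM in the other monocyte libraries, was among the 4 whose call was lost (limma adjusted p = 0.0647). Over all 77 the median coefficient of variation among libraries was 9.81% in TRM co-cultures, 21.9% in monocyte co-cultures and 13.1% alone, beside 14.8%, 19.5% and 14.7% over all genes.

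**Figure D4:**
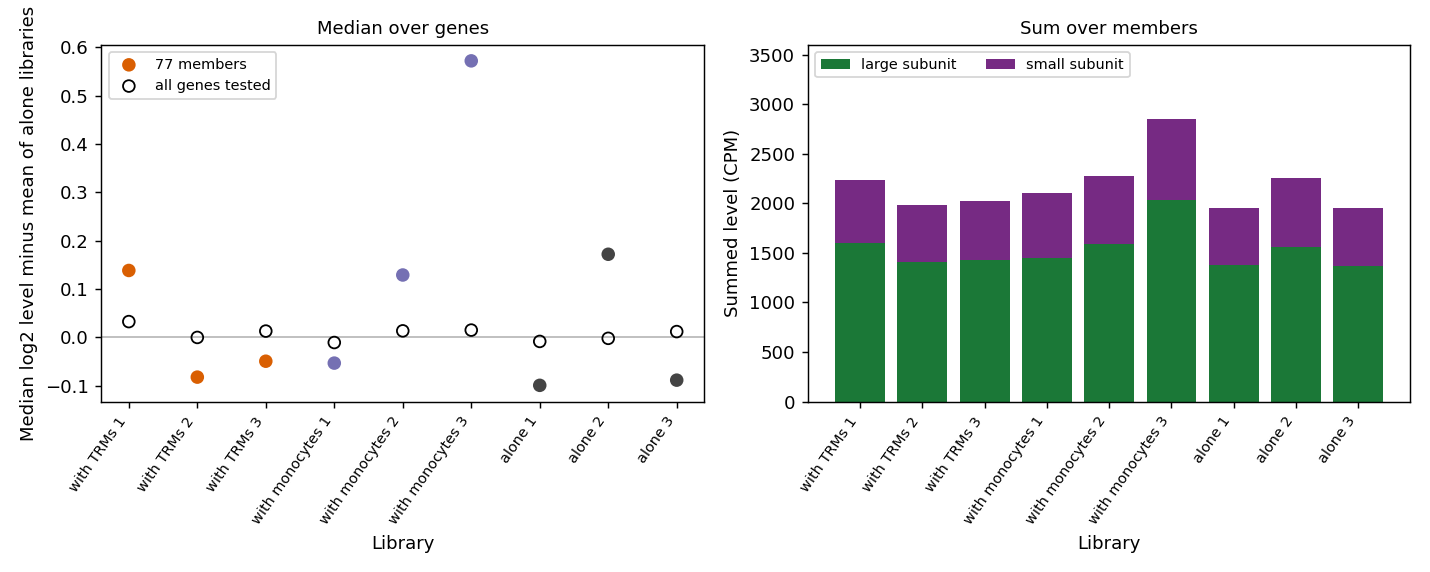
Left, median log2 level of the 77 genes (filled) and of all tested genes (open) in each library, relative to the mean of the alone libraries; right, summed level in CPM of the 50 large-subunit and 26 small-subunit genes. Monocyte library 3 stands at 0.57, the other 8 libraries between -0.10 and 0.17.

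**Figure D5:**
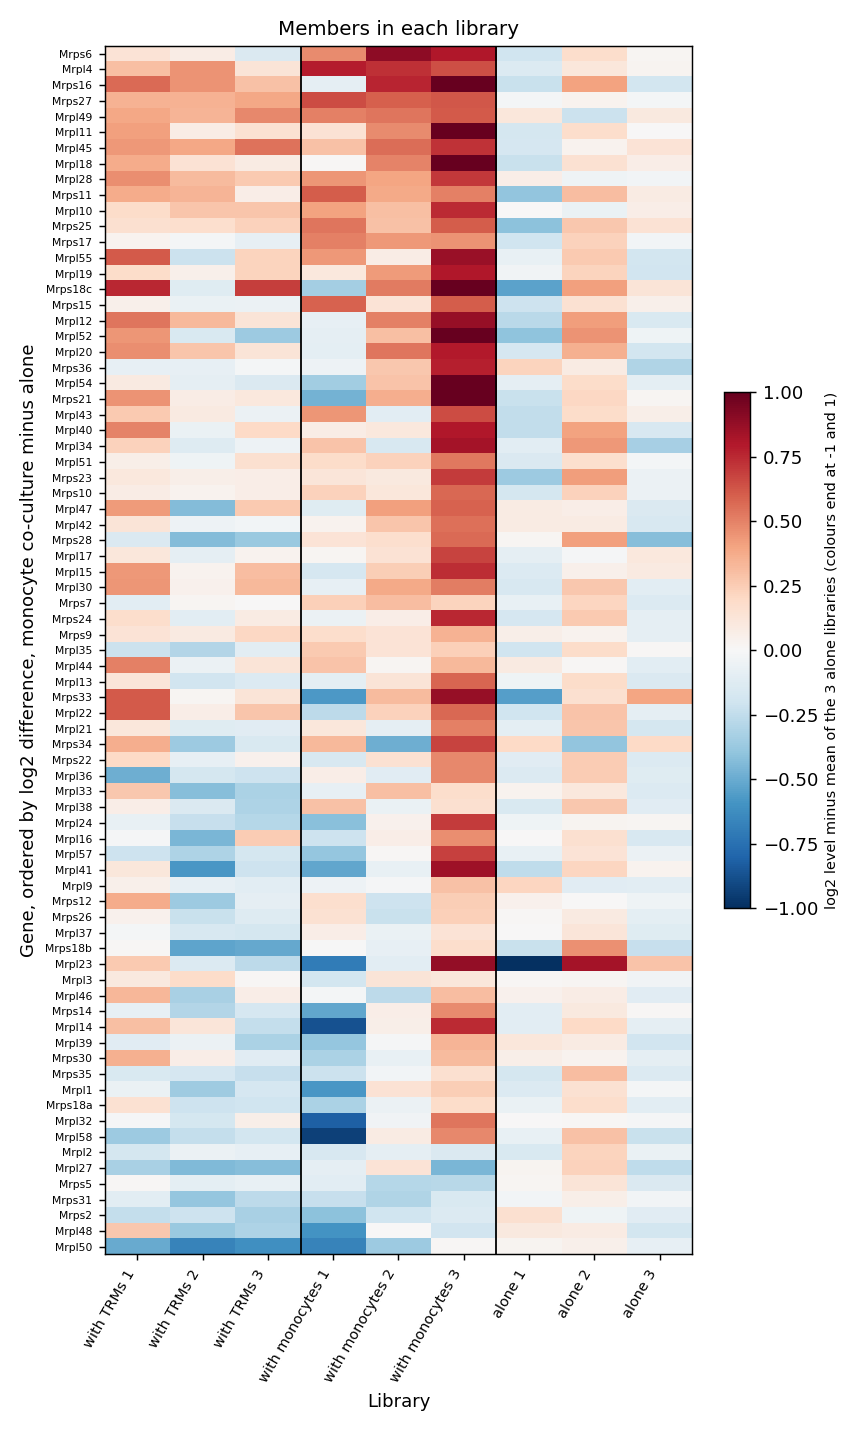
Log2 level of each of the 77 genes (rows, ordered by the monocyte difference) in each library (columns) relative to the mean of the alone libraries; colours end at -1 and 1. Red is widespread in monocyte library 3, Mrpl4, Mrps6, Mrps27 and Mrpl49 are red in all 3 monocyte libraries, and Mrpl50, in the last row, is blue in the TRM libraries and 2 of the monocyte libraries.

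Other measures also differed between monocyte library 3 and the other monocyte libraries. The summed level of the cytosolic ribosomal protein genes was 7554, 10427 and 13295 CPM in monocyte libraries 1 to 3, 9007, 8938 and 8353 CPM with TRMs and 7062, 10239 and 7117 CPM alone. Library 2 among the alone cultures was thus high for the cytosolic and, at a median of 0.17, for the mitochondrial set. The 7 epithelial markers summed to 9960, 11079 and 15660 CPM in monocyte co-cultures, 18059, 15498 and 14687 CPM in TRM co-cultures and 15591, 14189 and 15638 CPM alone. Macrophage and monocyte markers summed to 193, 189 and 254 CPM in monocyte libraries 1 to 3, beside 167 to 259 CPM alone. The cytosolic ribosomal sum of monocyte library 3 was thus above every library of the other groups. Its epithelial sum was close to the alone libraries, and its macrophage and monocyte sum lay inside their range. The part of these measures in the result was not tested. Over the 79 cytosolic ribosomal protein genes 5 rose and none fell with monocytes, which is 6.33% against 14.7% of all genes, with 61 above 0 and a median log2 difference of 0.20. Of the 5, Rplp0, Rplp1 and Rpsa were called in each of 18 other fits, while the calls on Rpl5 and Rpl6 were lost without alone library 1 or 3 or monocyte library 2 or 3, and that on Rpl5 also without TRM library 2 or 3. With TRMs Rplp0 and Rpsa rose (2.53% against 10.2% of all genes; median over the 79 of -0.02). Both TRM calls were lost without alone library 1 or 3 or TRM library 2, and that on Rpsa also without TRM library 1 or 3 or monocyte library 2.

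The rest of the mitochondrial translation apparatus was read from lists of related genes. Of the 5 mitochondrial ribosome proteins under other names, such as Dap3 and Ptcd3, none was called in any comparison with alone by limma, edgeR, DESeq2 or limma-voom, with 0 at an unadjusted p under 0.05. Among 26 assembly and rRNA modification factors 1 rose with TRMs (3.85%, against 10.2% of all genes) and 2 rose with monocytes (7.69%, against 14.7%), and none fell. Rbfa, which acts in maturation of the small subunit, was at 47.3, 46.1 and 48.9 CPM with TRMs, 59.1, 48.2 and 58.7 CPM with monocytes and 30.5, 32.9 and 33.3 CPM alone. All co-culture libraries lay above all alone libraries, by 0.56 with TRMs (limma adjusted p = 0.0177) and 0.78 with monocytes (adjusted p = 0.00177). The monocyte call on Rbfa held in each of 18 other fits, and the TRM call was lost without alone library 1 or 3 or TRM library 2 or 3 (adjusted p up to 0.0716). Rcc1l, known in human cells as a factor in large-subunit assembly, was at 54.8, 46.9 and 41.9 CPM with monocytes and at 26.5, 29.4 and 25.9 CPM alone (0.81, adjusted p = 0.00370), without overlap, and this call too held in 18 fits.

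None of 14 translation factors was called by limma in either comparison with alone, with 1 lower at an unadjusted p under 0.05 with TRMs and 1 higher with monocytes. DESeq2 called 1 lower with TRMs, and edgeR, DESeq2 and limma-voom each called 1 higher with monocytes, Gfm1, an elongation factor (limma 0.40, adjusted p = 0.0501). Of 20 mitochondrial aminoacyl-tRNA synthetases and partners 1 rose with TRMs, Lars2 (5.0%, against 10.2% of all genes). With monocytes 2 rose, Gatc and Tars2 (10.0%, against 14.7% of all genes). The Lars2 call was lost on leaving out any TRM or alone library, the Gatc call without alone library 1, and the Tars2 call in 7 of 18 other fits. Of 22 genes for copying and reading mitochondrial DNA, 1 rose and 2 fell with TRMs (13.6%, against 18.4% of all genes in either direction). With monocytes 4 rose (18.2%, against 14.7% of all genes). The 4 were Rexo2, Tbrg4, Fastk and Polrmt; the call on Tbrg4 held in 18 other fits, that on Fastk was lost in 3 and that on Polrmt in 6. The genes that fell with TRMs were Ssbp1 and Hsd17b10, and the call on Hsd17b10 was lost in 5 of 18 other fits, each without an alone library or TRM library 2 or 3. Rexo2, an oligoribonuclease, was at 128, 146 and 172 CPM with TRMs, 171, 194 and 203 CPM with monocytes and 63.3, 116 and 100 CPM alone (0.71 with TRMs and 1.07 with monocytes, limma adjusted p = 0.0246 and 0.00165). The monocyte call on Rexo2 held in 18 other fits and the TRM call was lost without alone library 1 or TRM library 2 or 3 (adjusted p up to 0.103). Ssbp1, which coats single-stranded mitochondrial DNA, fell with TRMs to 21.7, 23.1 and 23.6 CPM, against 38.8, 36.7 and 33.3 CPM alone (-0.67, adjusted p = 0.0104, and 0.0538 without alone library 1).

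Of 15 mitochondrially encoded genes, for the mRNAs that the mitochondrial ribosome reads and for its rRNAs, 8 could be followed. All 8 were below alone in both comparisons, with medians of -0.52 with TRMs and -0.59 with monocytes, and none was called by limma, edgeR, DESeq2 or limma-voom. At an unadjusted p under 0.05 limma had 0 lower with TRMs and 2 lower with monocytes. Mitochondrially encoded genes took 0.622%, 0.316% and 0.447% of reads in TRM libraries 1 to 3, 0.288%, 0.481% and 0.580% in monocyte libraries and 0.667%, 0.646% and 0.523% in alone libraries, so the groups overlapped. Of 9 regulators of mitochondrial biogenesis, Esrra, a nuclear receptor, rose with TRMs (0.72, limma adjusted p = 0.0115) and Yy1, whose letter pattern is marked in the windows above, fell with monocytes (-0.65, adjusted p = 0.0138). The Esrra call held in 18 other fits, and the Yy1 call was lost without alone library 1 or monocyte library 2 (adjusted p up to 0.0578). Ppargc1a, a coactivator of mitochondrial biogenesis, fell with TRMs (-1.76, adjusted p = 0.0470), a call lost in 8 of 18 other fits. The share of the 9 regulators called was 22.2% with TRMs and 11.1% with monocytes, against 18.4% and 27.3% of all genes in either direction.

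The submitters also tested each co-culture against tumour cells alone, and the authors' deposited tables list 76 of the 77 genes. In the authors' deposited table for TRMs, 1 was lower and none higher at a false discovery rate under 0.05, beside 11.7% and 12.0% of all listed genes. The lower gene was Mrpl50, at a log2 fold change of -0.61 in the authors' deposited table. In the authors' deposited table for monocytes 6 were higher and none lower, beside 14.4% and 13.8% of listed genes. All 7 were among the genes called above.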

How the data were processed

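RNA was measured by SMART-Seq v4 cDNA sequencing in 9 libraries, 3 per group, grouped and numbered as their labels give it. STAR 2.5, edgeR and the mm10 build are named by the submitters' processing notes; no source used here gives the counting tool. The deposited values are a normalised signal: all 111051 were whole reads plus 0.5 within 1e-06 read after scaling by TMM library sizes. The authors' deposited tables hold log2 fold changes, a likelihood ratio score and p-values, per the file headers.

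The log2 of the deposited values was tested with limma 3.58.1 (trend) over all 9 libraries, with group means as terms and 6 residual degrees of freedom. Tests were two-sided. A call means a p under 0.05 after Benjamini-Hochberg adjustment over 12326 genes left by filterByExpr (13 removed, minimum count 10, minimum total 15). Fold changes are on this log2 scale, where the added 0.5 read understates changes of low genes. Intervals of levels are SDs over libraries. The procedure was also run on simulated counts, whose outcome is not given here, and no result above rests on that run. Alternatives were edgeR 4.0.16, DESeq2 1.42.0 and limma-voom on recovered reads, library-total scaling, another pseudocount, other filters, only the groups compared, a replicate block and leaving out each library (18 fits). R 4.3.3 and Python 3.11.15 were used.

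The gene family was picked as a subject, and the other lists drawn up, with earlier results of these data known, although the rule that finds the genes uses symbols alone. Named genes were called genes without overlap by fold and p, those with the smallest p where few were called, the 4 highest and 4 lowest per kilobase, and genes with stated roles. Positions are from GENCODE M21 and promoter windows from RefSeq, both on GRCm38.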

Additional observations from a re-analysis of the deposited data

How the results depend on the processing

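The counts above were recomputed in 18 other fits. With TRMs the count of genes called higher was 0 and became 1 (Mrpl45) with DESeq2, with only the groups compared, with the replicate block and without monocyte replicate 1 or 3; leaving out replicates gave 0 to 1. The count called lower was 1 and was 0 to 1 on leaving out replicates. With monocytes the count called higher was 8 and ran from 4 to 12 on leaving out replicates, and the count called lower ran from 0 to 1 (Mrpl50, without monocyte replicate 3). Library totals and only the groups compared gave 6 higher, the replicate block 7. Between the co-cultures DESeq2 gave 1 lower (Mrps6), and the median difference of -0.21 ran from -0.32 to -0.0357 on leaving out replicates. Except where a left-out replicate shows it, the cause was not tested. Among refits of 31 named genes, 1638 of 1674 kept their direction and side of the threshold or changed sign without being called; 28 lost and 8 gained a call, and no called difference changed sign. Uncalled sign changes came to 29, 27 and 27 of 558 refits in the 3 comparisons.

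Scaling by library totals moved the median of all genes to -0.09 with TRMs and -0.07 with monocytes. The 77 genes then had medians of -0.07 and 0.16, with 27 and 56 above 0. The split over all genes with TRMs became 1003 higher and 1302 lower, against 1257 and 1005.

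Same-numbered libraries deviated together with correlations from -0.02 to 0.43, not all above 0.1, so the replicate number was not used as a pairing. Correlations of different-numbered libraries ran from -0.40 to 0.26, and whether the number marks a weak pairing was not tested. As a block the replicate number gave 1 higher and 1 lower with TRMs and 7 higher with monocytes.

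Mrps36, with the fewest reads of the 77 genes, had an SE of 0.59; counting error and spread between libraries were not separated.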
